A study of Sus scrofa with 63 samples.

Results

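The comparison set crossbred against purebred fetuses in the jejunum of pigs at day 90 of gestation. It was the mean of both crossbred groups, LWMS and MSLW, minus the mean of both purebred groups, LW and MS, and 32 of the 63 arrays of the study belonged to it. Large White (LW) and Meishan (MS) are pig breeds at opposite ends for piglet mortality at birth. LWMS fetuses had an LW sire and an MS sow, MSLW fetuses had an MS sire and an LW sow, and LW and MS fetuses had both parents of 1 breed. All were male fetuses obtained by caesarean from sows given mixed LW and MS semen, so a litter held purebred and crossbred fetuses, and each fetus had its own one-colour Agilent array of full jejunum tissue. At day 90 there were 9 LW, 6 MS, 9 LWMS and 8 MSLW fetuses, and the 31 arrays of day 110, with the same 4 genotypes, served for comparison. Which sow carried which fetus is not in the labels, and litter mates were therefore treated as independent.

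Where gene expression is additive, a first cross lies midway between its parental lines. A departure from that midpoint is called non-additive expression, and it has been studied as a possible molecular side of heterosis, the superiority of crosses over the mean of their parents. A cross that carries 1 expressed and 1 silent copy of a gene is expected to make the mean amount of RNA of both parents. That mean is a midpoint of amounts. On a log2 scale the midpoint of the same parents is their geometric mean, which lies lower, and it lies far lower when 1 parent is near zero. Both midpoints are therefore given for the called probes. With the reciprocal crosses weighted equally, the contrast is also the sum of a comparison within LW sows (MSLW minus LW) and a comparison within MS sows (LWMS minus MS), divided evenly, so that the breed of the sow cancels within each.

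Signals are log2 values from which the 75th percentile of their own array was subtracted, and a difference of 1 is a doubling. Of 60305 probes, 40515 were tested, and a probe was called at an adjusted p under 0.05 (limma, Benjamini-Hochberg). Against the log2 midpoint, 18 probes were higher in crossbreds, which is 0.0444% of the probes tested, and 0 were lower (0%). An unadjusted p under 0.05 was reached by 1909 probes, 4.71% of those tested, with 1237 of them higher and 672 lower. Against the linear midpoint, 0 probes were called (0%) and 1716 had an unadjusted p under 0.05, with a lowest adjusted p of 0.963. The median difference over all probes tested was 0.0032 on the log2 scale and -0.0043 on the linear one. The share of probes well above background ran from 56.7 to 75.1% in the 15 purebreds and from 56.3 to 87.6% in the 17 crossbreds, where 1 LWMS array stood at the top.

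The 18 probes are shown first by sequence, because 11 of them carry no gene symbol and are known only by their 60 bases. The other 7 named 5 genes: MTFP1, a protein of mitochondrial fission; TMOD3, a tropomodulin that caps the slow-growing end of actin filaments; MMRN2, an extracellular matrix protein of blood vessels; BCAS2, a component of the spliceosome; and FAM118A. The sequences below are those of the array design, 5′ to 3′, for the probes described one by one. Capitals mark the longest stretch that the pairs printed together share.
A_72_P417829: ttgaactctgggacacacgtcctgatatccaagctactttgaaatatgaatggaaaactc
A_72_P166816: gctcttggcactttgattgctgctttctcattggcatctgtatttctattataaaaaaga
MTFP1, A_72_P184536: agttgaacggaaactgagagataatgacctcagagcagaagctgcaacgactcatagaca
TMOD3, A_72_P302654: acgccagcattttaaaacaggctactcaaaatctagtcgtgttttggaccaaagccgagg
MMRN2, A_72_P512357: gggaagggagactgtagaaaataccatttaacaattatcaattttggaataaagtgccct
BCAS2, A_72_P643895: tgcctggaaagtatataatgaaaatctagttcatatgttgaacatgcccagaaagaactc
FAM118A, A_72_P203597: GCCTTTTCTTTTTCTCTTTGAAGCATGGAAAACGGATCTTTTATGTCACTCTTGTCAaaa
FAM118A, O1296: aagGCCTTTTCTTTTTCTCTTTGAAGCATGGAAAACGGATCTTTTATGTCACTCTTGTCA
A_72_P238887: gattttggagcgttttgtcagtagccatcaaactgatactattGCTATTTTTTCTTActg
A_72_P138251: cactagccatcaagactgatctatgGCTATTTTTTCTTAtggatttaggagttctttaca
A_72_P086596: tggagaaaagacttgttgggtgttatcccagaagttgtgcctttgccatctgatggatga

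The 18 probes stand for 16 separate targets at most. The second MTFP1 probe, O4058, has all 60 bases of the MTFP1 probe printed above, so that their agreement is a repeat of 1 measurement. Both FAM118A probes share 57 bases and differ by a shift of 3. A_72_P238887 and A_72_P138251, both without a gene, share a run of 14 bases.

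In all 18 probes the purebreds differed strongly, and both crossbred means lay between the purebred means. The log2 midpoint lies far below the linear one in such probes, so the contrast itself favours them. The order alone, at any size of breed difference, holds for 10890 of the 40515 probes tested (26.9%). For 17 of the 18, MS was the low breed. In the 11 of these that were well above background on at least 1 MS array, MS minus LW was between -5.93 and -2.85 on the log2 scale. In the other 6, no MS array was well above background, and LW was at least 5.53 to 65.8-fold the MS mean. In these 17, every LW fetus and every crossbred fetus exceeded every MS fetus. The 17 were selected on these same values, and the share of all probes with such a separation was not counted. The amount in crossbreds (unlogged signal), as a share of the LW amount, was 41.6 to 80.3% in LWMS (median 55.9%) and 47.1 to 78.7% in MSLW (median 59.4%). The MS share was 1.64 to 13.9% in the 11 probes above. Some of their MS means include arrays not well above background. The extremes of -5.93 and 1.64% are those of A_72_P238887, with 3 of 6 MS arrays well above background, and are uncertain. Set against the linear midpoint, the 18 probes stood at 76.3 to 145% of it in LWMS (median 107%) and at 91.2 to 147% in MSLW (median 117%). For 16 of the 18 the linear difference was within 1 SE of 0, and for 6 it was below 0.

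A_72_P417829 matches no gene symbol. Its signal ran from 0.06 to 0.93 (median 0.44) in 9 LW, from -1.03 to -0.38 (median -0.71) in 9 LWMS, from -0.72 to 0.92 (median -0.29) in 8 MSLW and from -8.49 to -6.83 (median -7.80) in 6 MS fetuses. None of the 6 MS arrays measured it well above background, whereas every array of the other groups did. The LW mean was at least 65.8-fold, the LWMS mean at least 30.3-fold and the MSLW mean at least 44.5-fold the MS mean, each a bound set against the lowest signal well above background on the MS arrays. The contrast against the log2 midpoint, which rests on these MS values below background, was 3.25 (SE 0.18, limma adjusted p = 1.02e-20). With signals raised to the lowest well above background on each array, a setting added after the data were seen, it was 2.18. The MS values were then largely set by that floor, so this contrast is a bound and no test of MS expression. LWMS held 46.0% and MSLW 67.6% of the LW amount. Against the linear midpoint the difference was 0.18 (SE 0.21, limma unadjusted p = 0.397).

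A_72_P166816 also has no symbol, and the array annotates it with a cDNA from mesenteric lymph node. LW fetuses ran from -0.09 to 0.57 (median 0.17), LWMS from -1.63 to -0.47 (median -0.88), MSLW from -1.32 to 0.58 (median -0.61) and MS from -6.08 to -4.88 (median -5.68), with 3 of 6 MS arrays well above background. A single crossbred of 17 reached the range of LW, and none came near that of MS. The contrast was 1.87 (SE 0.23, limma adjusted p = 8.16e-07) on the log2 scale and -0.02 (SE 0.26) on the linear one.

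MTFP1 sits in the inner mitochondrial membrane. By A_72_P184536 it ran from -0.42 to 0.87 (median 0.03) in LW, from -1.25 to -0.22 (median -0.67) in LWMS, from -1.17 to -0.52 (median -0.85) in MSLW and from -5.10 to -2.32 (median -4.55) in MS. All 32 arrays measured it well above background, so the low MS value is a measured signal of this sequence and not a floor. The gene has no probe of another sequence here, and the sequences of the breeds under the probes were not compared. LWMS held 55.9% and MSLW 48.7% of the LW amount, and MS held 4.82%. The contrast was 1.25 (SE 0.18, limma adjusted p = 2.79e-05) against the log2 midpoint and -0.0042 (SE 0.20) against the linear midpoint.

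TMOD3, by the single probe of it that was tested of 2 on the array, was more spread in 1 of the crosses. It ran from -0.64 to 1.02 (median -0.23) in LW, from -1.44 to 0.71 (median -0.96) in LWMS, from -1.52 to -0.12 (median -0.99) in MSLW and from -5.19 to -3.81 (median -4.21) in MS. Crossbreds overlapped LW in 5 of 17 fetuses, and 5 of 6 MS arrays were well above background. The contrast was 1.42 (SE 0.25, limma adjusted p = 0.004) on the log2 scale and 0.26 (SE 0.28) on the linear one.

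For MMRN2 and BCAS2 the call rested on 1 probe of several. MMRN2, by A_72_P512357, ran from -3.62 to 0.16 (median -2.22) in LW, from -3.72 to -1.94 (median -3.05) in LWMS, from -4.90 to -2.25 (median -3.14) in MSLW and from -8.34 to -7.17 (median -7.86) in 5 measured MS fetuses, of which 1 was well above background. Its contrast was 1.92 (SE 0.36, limma adjusted p = 0.00789) on the log2 scale and 0.07 (SE 0.40) on the linear one. With signals raised to the lowest well above background, the log2 contrast was 0.91 (SE 0.31, limma adjusted p = 0.968) and did not pass. The other 4 MMRN2 probes had log2 contrasts of 1.18, 0.49, 0.11 and -0.20 and none was called, although MS lay 1.34 to 4.22 below LW in them. A_72_P382258, with a contrast of 0.11 (SE 0.46), shares 48 of its 60 bases with the called probe.

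BCAS2, by A_72_P643895, ran from -0.52 to 0.82 (median 0.01) in LW, from -1.59 to -0.38 (median -0.94) in LWMS, from -1.78 to -0.52 (median -1.14) in MSLW and from -7.37 to -3.19 (median -4.61) in MS, with 3 of 6 MS arrays well above background. The contrast was 1.5 (SE 0.32, limma adjusted p = 0.0358) on the log2 scale and -0.03 (SE 0.36) on the linear one. The other 10 BCAS2 probes tested, which share at most 9 bases in a row with it, gave contrasts between -0.12 and 0.07. In those 10 MS minus LW lay between -0.64 and -0.05, against -4.97 by the called probe. The probes of BCAS2 thus disagree, and the call is that of 1 probe and not of the gene.

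FAM118A was the named target of which MS kept most, 12.6% of the LW amount by A_72_P203597. Its other probe, O1296, shares 57 bases with this one and is no separate check on the gene. The sequences of the breeds were not compared under this or any other called probe. By A_72_P203597 FAM118A ran from 0.88 to 1.27 (median 1.08) in LW, from -0.14 to 0.47 (median 0.30) in LWMS, from 0.06 to 0.80 (median 0.60) in MSLW and from -2.47 to -1.43 (median -1.79) in MS. By this probe no crossbred reached the lowest LW fetus and none came down to MS, while by O1296 1 of 17 crossbreds lay above the lowest LW fetus. The contrast was 0.76 (SE 0.16, limma adjusted p = 0.0275) by this probe and 0.72 (SE 0.16, limma adjusted p = 0.0497) by O1296, the called probe nearest the threshold, while A_72_P021226, with 1.41 (SE 0.31, limma adjusted p = 0.0544), lay just outside it.

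A_72_P086596 was the only 1 of the 18 in which LW was the low breed. It ran from -2.67 to -1.0 (median -1.96) in LW, from -0.58 to 0.90 (median 0.04) in LWMS, from -1.02 to 1.0 (median 0.76) in MSLW and from -0.04 to 1.41 (median 0.81) in MS, well above background on all arrays. Here the crossbreds overlapped MS broadly, and 1 MSLW fetus lay within the LW range. The contrast was 0.89 (SE 0.18, limma adjusted p = 0.0245) on the log2 scale and 0.36 (SE 0.22, limma unadjusted p = 0.105) on the linear one.

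The remaining 8 called probes carry no symbol. The array file likens A_72_P724813 to NUBPL, a factor for the assembly of respiratory complex I, A_72_P361518 to a Sec61 alpha subunit of the translocon and A_72_P008396 to uroporphyrinogen III synthase of haem synthesis. Group means of the 8 lay between -3.12 and 0.38 in LW, between -4.20 and -0.46 in LWMS, between -4.05 and -0.37 in MSLW and between -7.47 and -4.12 in MS. Their contrasts were 0.81 to 2.17. For 5 of them, those 3 with A_72_P034061 and A_72_P138251, no MS array was well above background. LW was then at least 5.53 to 19.2-fold the MS mean. With signals raised to the lowest well above background, A_72_P361518 stood at 1.5 and passed. A_72_P724813 (0.93), A_72_P008396 (0.88), A_72_P138251 (0.76) and A_72_P034061 (0.31) did not pass, with limma adjusted p between 0.583 and 0.968. The MS values of these 5 were then largely set by that floor, so the outcome is no test of MS expression. As measured, A_72_P008396, where crossbreds held 80.3 and 78.7% of the LW amount, had the largest linear difference of the 18, 0.53 (SE 0.27, limma unadjusted p = 0.0532).

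**Figure D1:**
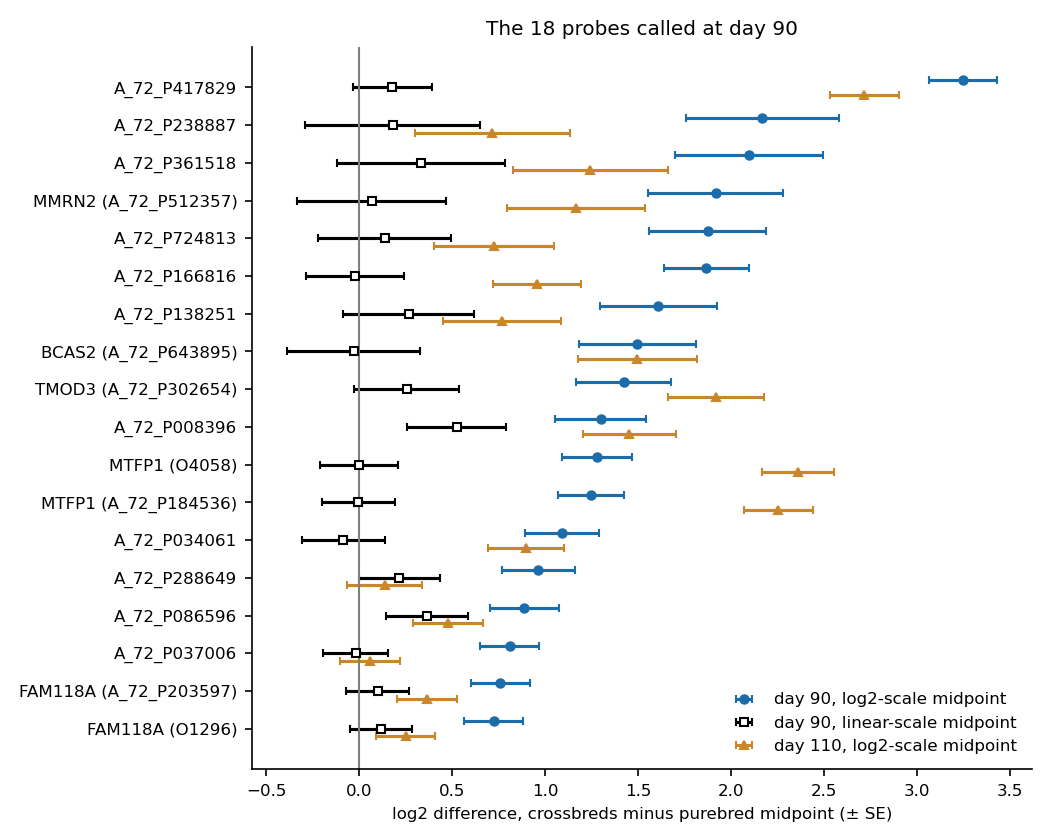
Crossbreds minus purebred midpoint (log2, ± SE) for each of the 18 called probes at day 90 against the log2 midpoint (filled circles), at day 90 against the linear midpoint (open squares) and at day 110 against the log2 midpoint (triangles). The circles lie between 0.72 and 3.25, the squares between -0.08 and 0.53, and the triangles between 0.06 and 2.72.

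How the contrast depended on the breed difference was described over all probes, with the breed difference taken from the fetuses of day 110, which do not enter the day 90 contrast. Among 32158 probes with MS and LW less than 0.5 apart at day 110, the median log2 contrast at day 90 was 0.00070 and 50.2% were above 0. It was 0.03 for 1924 probes 1 to 2 apart, 0.24 for 303 probes 2 to 4 apart and 1.16 for 39 probes at least 4 apart, of which 89.7% were above 0. On the linear scale the medians of the same groups were -0.0027, -0.02, -0.05 and -0.08, with 35.9% above 0 in the last. Called probes were 0 of the 40173 under 2 apart, 8 of the 303 and 10 of the 39. Probes share fetuses and genes, and these medians are a description.

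**Figure D2:**
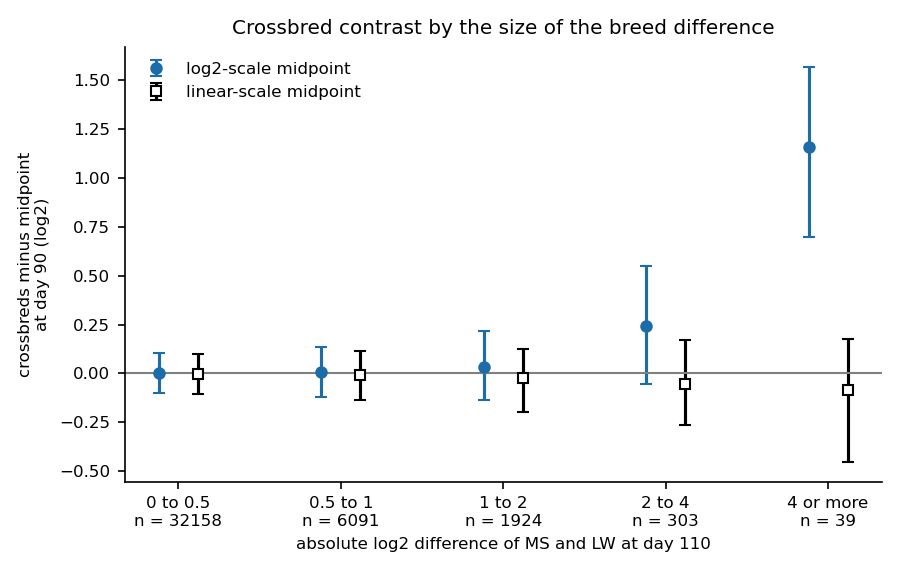
Median (with quartiles) of the crossbred contrast at day 90 over the 40515 probes tested, grouped by the absolute MS minus LW difference at day 110, against the log2 midpoint (filled) and the linear midpoint (open). The filled medians climb from 0.00070 to 1.16 with the breed difference and the open ones run from -0.0027 to -0.08.

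Whether crossbreds lay outside both breeds was examined by a comparison with the nearer purebred mean, added after the data had been seen. The crossbred mean lay above both purebred means for 9809 probes, below both for 10263 and between them for 20443 (50.5%). By this test 0 probes were called (limma variances, lowest adjusted p = 1), and 65 (0.160%) had an unadjusted p under 0.05, 46 above and 19 below. The test takes the larger of the p-values against LW and against MS and is strict. A lack of calls therefore does not show that no probe lay outside both breeds. None of the 18 probes lay outside the purebred means. The smallest p among probes with a symbol was that of DMD, the dystrophin gene. It stood at -0.85 in LW, -0.89 in MS, -0.59 in LWMS and -0.38 in MSLW. The crossbred mean was 0.36 above the nearer breed and did not pass (limma adjusted p = 1). DMD lies on the X chromosome. A male fetus has its X from the sow alone, so no copy of this gene came from the sire.

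Of the genes that fill the rule for naming, none of the following passed. Nearest to the threshold among those higher in crossbreds was METTL7B, a methyltransferase-like protein, at 1.41 (SE 0.32, limma adjusted p = 0.0737). Its group means were -1.93 in LW, -6.65 in MS, -2.69 in LWMS and -3.07 in MSLW, with a linear difference of 0.0063. In MS, 1 of 6 arrays was well above background. With signals raised to the lowest well above background, its log2 contrast was 0.84 (SE 0.28, limma adjusted p = 0.968). The others were DDX20, a helicase of the SMN complex (0.73, and 0.29 on the linear scale), MED27 of the Mediator complex (0.40), DMD (0.39) and CPEB3, which binds polyadenylation elements (0.82), with adjusted p between 0.293 and 0.435. Among these, DMD and CPEB3 had purebreds within 0.69 of each other. Their linear differences, 0.39 and 0.80, were close to the log2 ones. CPEB3 was near background, well above it on 3 of 9 LW, 5 of 6 MS, 5 of 9 LWMS and 6 of 8 MSLW arrays. With signals raised to the lowest well above background, its log2 contrast was 0.57 (SE 0.20, limma adjusted p = 0.968).

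In the other direction the 10 genes with the smallest p were MFSD14A, BMI1, HP, CHUK, HUS1, ART3, P2RY10, CLDND1, C13ORF27 and DDX47, with contrasts of -0.76 to -0.31 and adjusted p between 0.435 and 0.932. P2RY10, like DMD, lies on the X chromosome. BMI1, a Polycomb protein, stood at -0.67 (SE 0.19), with means of -2.95 in LW, -3.12 in MS, -3.67 in LWMS and -3.73 in MSLW. CHUK, the kinase IKK alpha of NF-kappa-B signalling, stood at -0.47 (SE 0.14), and HUS1, of the DNA damage checkpoint, at -0.48 (SE 0.15). HP, haptoglobin, which binds free haemoglobin, stood at -0.37 (SE 0.11), with MS at -2.68 above the other 3 groups at -3.33 to -3.41.

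Both parts of the contrast were then compared. They share no array with each other, but each shares its arrays with the contrast. In fetuses of LW sows, 176 probes were higher (0.434% of those tested) and 96 lower (0.237%) in MSLW than in LW, and the processed matrix of the authors split its calls into 183 higher and 201 lower. In fetuses of MS sows, 258 were higher (0.637%) and 29 lower (0.0716%) in LWMS than in MS. For the 17 MS-low probes, MSLW minus LW was between -1.09 and -0.35 (median -0.75). LWMS minus MS was between 2.01 and 5.09 in the 11 well above background on at least 1 MS array. LWMS was at least 2.61 to 30.3-fold the MS mean in the other 6. For MTFP1, MSLW minus LW was -1.04 (SE 0.24) and LWMS minus MS was 3.53 (SE 0.26). For A_72_P417829 MSLW minus LW was -0.56 (SE 0.25). For A_72_P086596 the order was turned, with 2.42 (SE 0.25) in LW sows and -0.64 (SE 0.27) in MS sows.

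Of the 532 probes called in either comparison, 27 were called in both, which is 9.93% of those called in LW sows and 9.41% of those called in MS sows, and none of the 27 moved the same way in both. They included probes of the drug-metabolizing enzymes CYP2C34 and CYP2C49, named here after their values were seen. By A_72_P292173 CYP2C34 was 4.05 lower in MSLW than in LW and 4.36 higher in LWMS than in MS, which left a contrast of 0.15 (limma unadjusted p = 0.837). CYP2C49 was 2.48 lower and 3.61 higher, with a contrast of 0.57 (limma unadjusted p = 0.242). Near-identical members of this family may share signal on such probes. MS and LW themselves differed by 2665 called probes (6.58%).

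**Figure D3:**
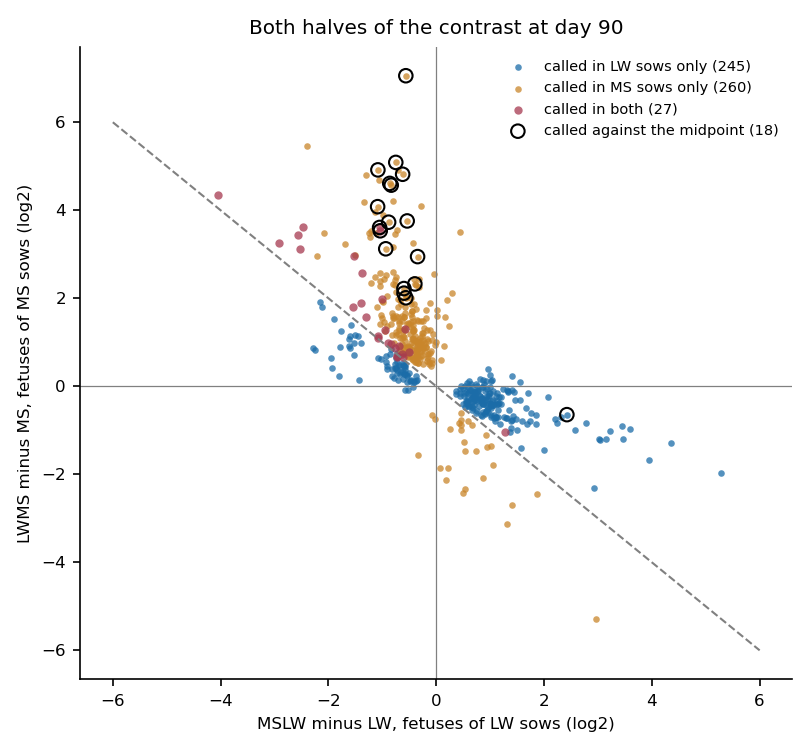
MSLW minus LW in fetuses of LW sows (horizontal) against LWMS minus MS in fetuses of MS sows (vertical), both log2, for the 532 probes called in at least 1 of them. The dashed line is a contrast of 0 on the log2 scale, on which equal and opposite differences lie, and the 18 circled probes lie above it.

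At day 110, in other fetuses, all 18 probes again had crossbreds above the log2 midpoint, by 0.06 to 2.72 (median 0.93, against -0.03 over all probes). Of these, 7 were called, where 0.143% of all probes tested were called higher and 0.0469% lower. With median centring, 41 probes were called higher and 1 lower at day 110, beside 58 and 19. The 7 were A_72_P417829 at 2.72 (SE 0.18), both MTFP1 probes at 2.25 (SE 0.18) and 2.36 (SE 0.19), TMOD3 at 1.92 (SE 0.26), BCAS2 at 1.5 (SE 0.32), A_72_P008396 at 1.45 (SE 0.25) and A_72_P034061 at 0.90 (SE 0.20). Smallest were A_72_P037006 at 0.06 (SE 0.16) and A_72_P288649 at 0.14 (SE 0.20), and FAM118A stood at 0.37 (SE 0.16). For 5 of the 18, A_72_P417829 among them, no MS array of day 110 was well above background. Against the linear midpoint of day 110, 12 of the 18 lay below 0, and the differences ran from -0.38 to 0.58 (median -0.15), with -0.17 for A_72_P417829, -0.38 for MMRN2, -0.08 for BCAS2, 0.43 for MTFP1 by A_72_P184536 and 0.52 for TMOD3. The 77 probes called at day 110 thus included 38.9% of the 18, and these 7 make up 9.09% of the 77. Against the linear midpoint, 31 probes (0.0765%) were called at day 110, where 0 were at day 90.

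MTFP1 had the smallest unadjusted p of the 18 for a difference between the ages, 1.71e-04 by O4058 and 2.10e-04 by A_72_P184536, and by the latter the contrast was 1.01 larger at day 110. It did not pass (limma adjusted p = 0.685). By this probe the LW level was 0.16 ± 0.42 (SD, n = 9) at the earlier age and 1.11 ± 0.47 (SD, n = 9) at the later one. LWMS stood at -0.68 ± 0.29 (SD, n = 9) and 0.84 ± 0.62 (SD, n = 9), and MS at -4.21 ± 0.98 (SD, n = 6) and -4.54 ± 0.37 (SD, n = 7). The change of each group with age was not tested here. Over all probes the age difference called 0 of 40515 (0%), with 2882 at an unadjusted p under 0.05 and a lowest limma adjusted p of 0.525.

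Gene lists for the functions of the fetal gut held 399 genes, of which 334 were tested by their brightest probe. None was called in the crossbred contrast, and 10 (2.99%) had an unadjusted p under 0.05, 4 higher and 6 lower, where 4.71% of all probes had. List medians ran from -0.33 to 0.14, beside -0.046 over the 334 genes and 0.0032 over all probes. The values below are therefore of genes that did not pass.

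Genes of digestion and absorption lay near the midpoint. Of 11 brush border enzymes 9 were above it and 2 below (median 0.04, and -0.0061 without MS fetus 532), with sucrase-isomaltase SI at 0.51 (SE 0.54) and the aminopeptidase ANPEP at 0.19 (SE 0.22). Of 10 genes of hexose and amino acid uptake 5 were above (median 0.02), with the fructose carrier SLC2A5 at 0.34 (SE 0.33) and the glucose carrier SLC2A2 at 0.15 (SE 0.35). Of 12 genes of lipid absorption and lipoproteins 11 were below (median -0.09), with PLIN2 of lipid droplets at -0.33 (SE 0.14) and the fatty acid receptor CD36 at -0.35 (SE 0.17). Xenobiotic metabolism (9 genes, median -0.0019) held GSTA2, a glutathione transferase, at 1.23 (SE 0.57) on the log2 scale and 0.24 on the linear one, and AHR at 0.24 (SE 0.15).

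Energy metabolism and growth gave small values. The medians were -0.05 for 18 genes of oxidative phosphorylation (CYCS -0.20, ATP5F1B -0.11), -0.01 for 13 of fatty acid oxidation (CPT2 0.13), -0.13 for 12 of glycolysis (TPI1 -0.24, ALDOA -0.17) and -0.07 for 9 of cholesterol synthesis (FDPS -0.20, CYP51A1 -0.17). The growth factor axis had the highest list median, 0.14, with 12 of 16 genes above 0, IGF2R at 0.21 (SE 0.15) and IGFBP5 at 0.33 (SE 0.24), and its median was 0.07 without LW fetus 484. Cell cycle genes lay at -0.11 (10 of 12 below 0, PCNA -0.23, MCM6 -0.17; -0.05 without MSLW fetus 450), heat shock and folding at -0.08 (DNAJB1 -0.22, HSPA5 0.21) and ribosome and elongation at -0.05 (RPL3 -0.26, RPL27 -0.21).

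Hormone response, imprinted and crypt genes were as close to 0. Medians were 0.04 for glucocorticoid response and steroid synthesis (NR3C1 0.16, PER1 0.21), 0.03 for the immediate early response (FOS 0.42, ATF3 -0.44), 0.07 for 16 imprinted genes (SNRPN 0.16, MEST -0.27), -0.05 for crypt and Wnt (SMOC2 0.40, ASCL2 -0.25), and -0.05 for goblet and enteroendocrine genes (SPDEF -0.34, CHGB 0.13). Complement and plasma proteins had a median of 0.01 but the widest range, from -0.44 to 1.48, with the fetal serum protein AFP at 1.0 (SE 0.44) and APOH at 1.48 (SE 0.75), the latter 0.43 on the linear scale.

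Of the 29 lists, markers of macrophages and granulocytes and the MHC genes had the lowest medians. All 19 genes of MHC and antigen presentation tested were below 0 (median -0.20), with SLA-DMB at -0.33 (SE 0.13) and the immunoproteasome subunit PSMB8 at -0.45 (SE 0.23), and none passed. With median centring or quantile normalization 18 of 19, and with normexp background correction 17 of 19, were below 0. Of 17 interferon-stimulated genes 14 were below 0 (median -0.15), with RSAD2 at -0.93 (SE 0.43) and ISG15 at -0.62 (SE 0.36). Their median was 0.16 in MSLW minus LW and -0.63 in LWMS minus MS, beside -0.05 and -0.39 for the MHC list. Of 13 markers of macrophages and granulocytes 12 were below 0 (median -0.33), with TYROBP at -0.33 (SE 0.14) and C1QC at -0.39 (SE 0.18). The summed level of these 13 markers was 4.26 to 5.17 in LW, 4.49 to 5.46 in MS, 4.42 to 5.18 in LWMS and 2.73 to 4.80 in MSLW. Without MSLW fetus 450, at the low end, the median of these markers was -0.21 and that of the MHC list -0.11. In whole tissue, fewer cells of a type and less RNA per cell cannot be told apart.

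Other cell types are given by their markers. Red blood cell markers lay below 0 in 8 of 8 (median -0.19, HBE1 -0.41, AHSP -0.27), with medians of 0.30 in MSLW minus LW and -0.81 in LWMS minus MS and a summed level of 4.32 to 5.52 in MS and 3.73 to 4.69 in LW. Lymphocyte markers lay below 0 in 9 of 13 (median -0.13, and -0.04 without LW fetus 500), with LCK at 0.31 and CD5 at 0.44. Medians were -0.04 for endothelium (TEK -0.16, CDH5 0.13), -0.05 for epithelium (CDH1 -0.20), 0.02 for enteric neurons and glia (UCHL1 0.16, TUBB3 -0.13), 0.05 for smooth muscle (MYH11 0.30, SYNM 0.13) and 0.13 for fibroblasts and matrix, with 11 of 12 above 0 (FN1 0.22, COL1A1 0.33). Without LW fetus 484 the last median was 0.04, and that of the red blood cell markers was -0.09 without MS fetus 827. Pancreas markers were tested for 2 of 10 genes (AMY2 0.11, CEL -0.10). The summed level of 8 epithelial markers was 7.06 to 7.99 over all groups, and the part of these cell types in the results was not tested.

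**Figure D4:**
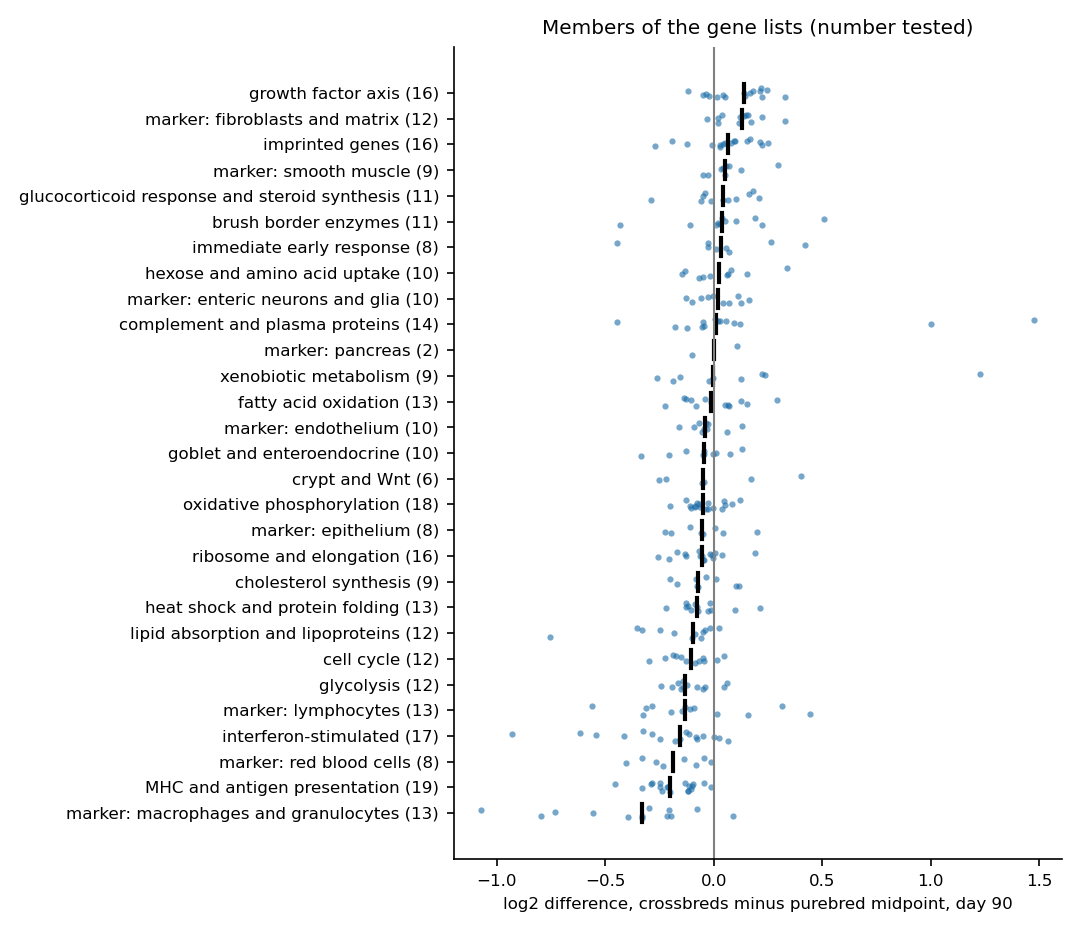
Crossbreds minus the log2 midpoint at day 90 for each tested member of 29 gene lists (points) with the median of the list (bars), ordered by the median. None of the points passed the test, and the list medians run from -0.33 for markers of macrophages and granulocytes to 0.14 for the growth factor axis.

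The arrays lay on 8 slides, of which 4 held all groups of day 90. Within these slides, which hold part of the arrays that the calls were made on, the contrasts of the 18 probes ran from 0.04 to 3.39 on slide 1, 0.19 to 3.0 on slide 2, 0.23 to 3.27 on slide 4 and 0.48 to 3.25 on slide 6. Among the genes filled in by the smallest p, some turned sign. These were BMI1 (0.19), HP (0.35) and CHUK (0.10) on slide 1, DDX20 (-0.09) and MED27 (-0.15) on slide 2 and CPEB3 (-0.04) on slide 6. The others of these genes kept their sign on each of the 4 slides.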

How the data were processed

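The authors hybridised jejunum RNA of 63 male pig fetuses to one-colour Agilent arrays. They deposited scanner files of Agilent Feature Extraction 10.10.1.1 with spot intensity on a linear scale, together with their own normalized log2 matrix (39446 probes), an alternative here. Of 61625 spots per array, 1319 control spots were left out, outlier spots were set to missing and spots of 1 probe were averaged. The 75th percentile of each array was subtracted from the log2 processed signal, so levels near background are uncertain. Testing required a signal well above background on 75% or more of the arrays in any of the 8 groups (40515 of 60305 probes), and 0 spots were saturated. Group means were fitted over all 63 arrays with limma 3.58.1 in R 4.3.3, with two-sided p-values adjusted by Benjamini-Hochberg over all probes tested. The linear midpoint is the mean of the unlogged group means, with a delta-method error and the same variances. The steps were tested on simulated data. Groups came from the sample titles. The sow, a random effect in the study's model, was not used. The p-values may therefore be too small, or too large since litters held purebred and crossbred fetuses. The number of arrays limits the precision. Symbols came from the files and NCBI tables, which left 33478 probes unnamed. The members and lists were chosen with earlier results of these data known. Named genes were all called genes, filled to 10 per direction by the smallest p, and per list the called members or else the 2 with the smallest p, by the brightest probe; a few of these are not reported here. A level given as at least a fold was set against the lowest signal well above background. Leaving out each array, other scalings, filters, the slide, weights and the linear midpoint were tried as alternatives.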

Additional observations from a re-analysis of the deposited data

Results flagged for a closer look

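Among 132 groups of the called probes and named genes at day 90, 12 held a fetus far from the rest of its group. The nominal rate is about 1 in 20 groups, but these groups share fetuses and are not independent. Both MTFP1 probes also have the same sequence, and an excess over that rate was not tested. MS fetus 532 stood above the other MS fetuses for MTFP1 (-2.32 by A_72_P184536 and -2.24 by O4058, the others at -5.10 to -4.08 and -4.88 to -4.37), BMI1 (-1.99), CHUK (-0.81) and MFSD14A (0.22). MS fetus 524 stood at -5.73 for A_72_P008396, where no MS array was well above background. LW fetus 484 stood at 0.16 for MMRN2 (the other LW fetuses at -3.62 to -2.03) and at 0.23 for C13ORF27. LW fetus 458 stood at -5.65 for A_72_P008396 and LW fetus 449 at -7.87 for CPEB3. MSLW fetus 450 stood at -1.02 for A_72_P086596 and at -5.96 for P2RY10. Without fetus 532 the contrast called 21 probes, of which 15 were among the 18, without fetus 450 it called 16, and without fetus 484 it called 20.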

How the results depend on the processing

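At day 90 the crossbred contrast called 18 probes. Against the linear midpoint 0 were called, and against the nearer purebred (added after the data were seen) 0. The processed matrix of the authors called 6, normexp with an offset of 50 called 2, signals raised to the lowest well above background (also added) called 11, array weights 105 and the filter on every array 0, where 4 of the 18 were left to test. All calls of the matrix, normexp and the raised signals were among the 18. Leaving out each day 90 array in turn gave 12 (without MS fetus 766) to 21 calls, all higher in crossbreds, and 0 against the linear midpoint each time; without MS fetus 766 the 18 fell to 12. The other alternatives gave 13 to 19. Apart from the linear midpoint and the nearer purebred, under which all 18 lost their call, A_72_P417829 and A_72_P166816 kept their call under each of the 44 alternatives that measured them, MTFP1 under 43, and BCAS2 lost it under 23 of 44, FAM118A under 14 of 45. Against the linear midpoint 5 called results turned sign: BCAS2 to -0.027, MTFP1 to -0.0042, A_72_P166816 to -0.022, A_72_P034061 to -0.085 and A_72_P037006 to -0.018.

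At day 110 the 77 calls became 138 with the matrix of the authors, 42 with median centring (41 of them higher), 50 with no filter, 28 with the filter on every array, 539 with array weights, 19 with day 110 arrays alone, 130 without fetuses 484 and 469, 31 against the linear midpoint and 324 with the share of probes above background as a covariate. The age difference called 3 with the matrix and 1 with normexp. MSLW against LW called 113 with median centring, 168 with no filter, 143 with the filter on every array and 4382 with array weights, and the matrix split its calls into 183 higher and 201 lower. LWMS against MS called 176 with normexp, 138 with the filter on every array and 662 with weights, and MS against LW 1683 and 5791 with the last 2. Of genes that did not pass, CEL moved from -0.10 to 0.046 with the slide as a block, 0.066 with weights, 0.080 with the covariate and -0.20 to 0.17 without single arrays. With weights RPL27 moved to 0.030, COL1A1 to -0.10 and ATF3 to 0.30. The causes were not tested. Fetus numbers are not shared between groups. No paired analysis was possible because the labels give no number that groups share. Targets near background, where 6 of the 18 had no MS array well above it, have only a bound in MS.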
